A study of Mus musculus with 64 samples.

Results

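The nucleus accumbens (NAc) was compared with the prefrontal cortex (PFCx) in mice that received saline only. The comparison holds 16 of the 64 samples of the series, 8 NAc and 8 PFCx, chosen by their labels and not by any measured value. The animals were adult male C57BL/6N mice of 8 to 10 weeks, given a single intraperitoneal injection of saline and killed 2 h later. The PFCx was dissected from vibratome slices as the cingulate, prelimbic and infralimbic cortex with part of the dorsal peduncular cortex. By their titles, the saline samples of each tissue fall into sets I and II, with 4 samples in each. What the sets stand for, whether the NAc and PFCx samples share mice and whether each sample was a separate mouse is not given in the sources used here, so p-values measure only the spread between these samples. The other 48 samples came from mice given haloperidol, ketamine, methamphetamine, mianserin, risperidone or venlafaxine, with 4 samples per tissue and drug. They served as a repeat of the tissue comparison in samples that the saline comparison did not use.

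The NAc is the ventral part of the striatum, where most neurons are GABAergic medium spiny neurons. Direct-pathway cells carry the dopamine D1 receptor and make substance P and dynorphin, while indirect-pathway cells carry the dopamine D2 and adenosine A2a receptors and make enkephalin. The PFCx is built mainly of glutamatergic projection neurons arranged in layers, among which GABAergic interneurons are scattered. The striatal neurons arise from the subpallium and the cortical projection neurons from the pallium of the embryonic forebrain, under separate sets of transcription factors. In whole tissue, fewer cells of a type and less RNA per cell cannot be told apart.

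Medium spiny neuron genes were among the most strongly NAc-enriched and cortical projection neuron genes among the most strongly PFCx-enriched. Levels are FPKM (mapped fragments relative to transcript length and to all mapped fragments of the sample), summed over the transcripts of a gene symbol. Differences are NAc minus PFCx on the log2(FPKM + 1) scale, averaged over both saline sets, which understates the change of low genes. Of 16556 genes with a mean of at least 1 FPKM in either tissue, 1377 (8.32%) were higher in the NAc and 2934 (17.7%) higher in the PFCx at an adjusted p under 0.001 (limma). Adding a difference of at least 1 left 262 genes (1.58%) higher in the NAc and 506 (3.06%) higher in the PFCx. The samples of both tissues did not overlap for 562 of these 768 genes, and for 2644 (15.97%) of all genes tested. The longest transcript was under 300 bases for 5 of the 262 NAc genes and for 187 of the 506 PFCx genes. With every sample scaled to the same 75th percentile, the counts were 1959 and 2251, which moved the share of NAc-higher genes among the called from 31.9% to 46.5%. The median difference of all genes moved from -0.08 to -0.0047 with this scaling.

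**Figure D1:**
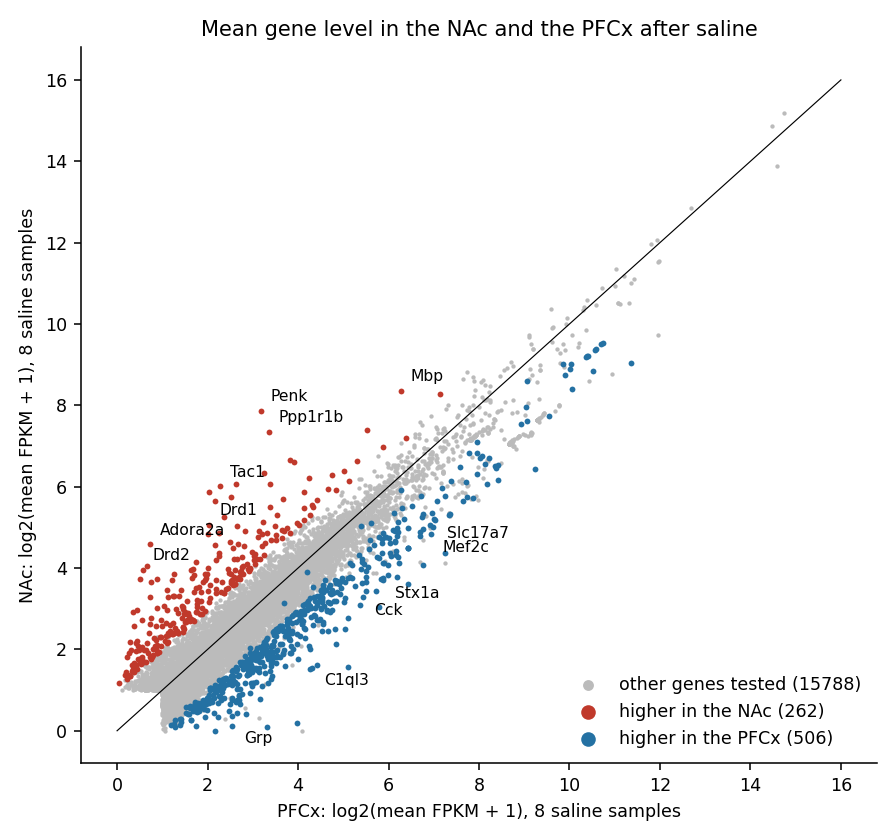
Mean gene level in the 8 PFCx saline samples (x axis) and the 8 NAc saline samples (y axis), both as log2(mean FPKM + 1), for the 16556 genes tested. Red points mark the 262 genes higher in the NAc and blue points the 506 genes higher in the PFCx by at least 1 at an adjusted p under 0.001, and the line marks equal levels. Penk, Ppp1r1b and Adora2a are among the genes farthest above the line, and C1ql3 and Grp are among the PFCx genes named below it.

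Several libraries stood apart from the rest. The aligned bases estimated per library were 2.03 to 3.26 gigabases in the NAc and 1.52 to 2.78 in the PFCx. The 4 NAc libraries of set I listed 85397 to 87827 transcripts above 0, and the other 12 listed 109231 to 110429. Transcripts under 300 bases took 17.8 to 29.8% of the summed FPKM in NAc set I, 31.5 to 43.6% in NAc set II, 33.0 to 45.3% in PFCx set I and 49.6 to 60.6% in PFCx set II. This share differed between the tissues (two-sided exact permutation test within the saline sets, p = 0.000408, the smallest the design allows, and 0.00163 after adjustment over 4 such measures). The summed FPKM of a library was 270323 to 379526 in the NAc and 364728 to 443311 in the PFCx. It differed by the same test (adjusted p = 0.00163), as did the transcripts above 0 (adjusted p = 0.00272) and the aligned bases (adjusted p = 0.0441). Replicate 4 of PFCx set II had the highest level of the 8 PFCx samples for 23 of the 34 medium spiny neuron genes tested. Their summed level was 382 FPKM there, 264 to 299.7 FPKM in the other PFCx samples and 1595 FPKM in the NAc at the median. Without this sample the counts of called genes were 1231 and 2803. Its part in single results was not tested beyond leaving it out.

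Among the 12 genes with the largest NAc excess that met the naming rule were Penk, Ppp1r1b, Scn4b, Adora2a, Tac1, Rgs9, Syndig1l, Drd2, Gpr6, Pcp4l1 and Gng7. Penk encodes proenkephalin, the precursor of the enkephalins, and lies at chr4:4133531-4138819 (mm10). Its level was 199.8 to 263 FPKM (median 234.7) in the NAc and 4.51 to 21.8 FPKM (median 5.35) in the PFCx. The lowest NAc sample stood far above the highest PFCx sample, and the mean FPKM was 29.02-fold higher in the NAc (log2 difference 4.88 ± 0.24 (SE), adjusted p = 2.06e-10). Ppp1r1b encodes DARPP-32, the phosphatase inhibitor through which dopamine signals in medium spiny neurons, and ran at 113 to 190.4 FPKM (median 167) in the NAc and 5.68 to 22.1 FPKM (median 7.50) in the PFCx. Adora2a, the adenosine A2a receptor, was at 18.3 to 26.5 FPKM (median 22.99) in the NAc and 0.168 to 2.26 FPKM (median 0.391) in the PFCx (log2 difference 3.94 ± 0.18 (SE), adjusted p = 6.44e-11). Scn4b, a sodium channel beta subunit, was at 49.7 to 65.9 FPKM (median 57.5) in the NAc and 1.46 to 10.5 FPKM (median 1.95) in the PFCx. In all 4 genes the highest PFCx value came from replicate 4 of set II, and no PFCx sample reached the NAc range.

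Direct-pathway genes followed the same order. Drd1 encodes the dopamine D1 receptor and was at 27.4 to 36.7 FPKM (median 32.9) in the NAc and 1.98 to 6.01 FPKM (median 2.80) in the PFCx (log2 difference 3.07 ± 0.12 (SE), adjusted p = 1.95e-11). Tac1, the precursor of substance P, was at 45.8 to 74.7 FPKM (median 64.9) in the NAc and 2.11 to 6.46 FPKM (median 3.51) in the PFCx (log2 difference 3.78). Pdyn, the precursor of the dynorphins, was at 33.6 to 42.2 FPKM (median 36.6) in the NAc and 3.51 to 5.43 FPKM (median 4.08) in the PFCx (log2 difference 2.89). None of these genes overlapped between the tissues. Of 9 direct-pathway genes tested, 7 were higher in the NAc, none higher in the PFCx, and Eya1 (log2 difference -0.37, adjusted p = 0.004) and Ebf1 (0.20, adjusted p = 0.128) did not pass. The other called members were Isl1 (1.497), a transcription factor of striatonigral cells, the muscarinic M4 receptor gene Chrm4 (1.16), Slc35d3 (1.60) and Asic4 (2.18).

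Among 6 indirect-pathway genes tested, 5 were higher in the NAc. Drd2, the dopamine D2 receptor, was at 11.97 to 18.3 FPKM (median 14.3) in the NAc and 0.184 to 1.66 FPKM (median 0.255) in the PFCx (log2 difference 3.44 ± 0.15 (SE), adjusted p = 3.9e-11). Its highest PFCx value was again replicate 4 of set II, below every NAc sample. The orphan receptor gene Gpr6 was at 10.6 to 13.6 FPKM (median 12.4) in the NAc and 0.111 to 1.10 FPKM (median 0.279) in the PFCx. Upb1 (0.69) passed with a smaller difference, and the transcription factor gene Sp9 did not pass (log2 difference 0.46, adjusted p = 0.00139).

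All 19 genes listed as shared by both medium spiny classes were higher in the NAc and free of overlap, with a median difference of 2.59 against -0.08 over all genes. Pde10a, the striatal cyclic nucleotide phosphodiesterase, was at 83.5 to 114 FPKM (median 101) in the NAc and 9.67 to 26.1 FPKM (median 11.5) in the PFCx (log2 difference 2.89 ± 0.13 (SE), adjusted p = 8.39e-11). Adcy5, the main adenylyl cyclase of the striatum, was at 58.9 to 76.8 FPKM (median 64.4) in the NAc and 7.68 to 12.7 FPKM (median 9.19) in the PFCx. Smaller differences were seen for Bcl11b (1.53), Foxp1 (1.04), Meis2 (1.38), Arpp21 (0.91) and the calcium-activated chloride channel relative Ano3 (0.51). Without replicate 4 of PFCx set II, the calls in the 3 medium spiny lists were 19, 7 and 5, as with it. The lists used here overlap in their members, so their counts are not independent of each other. List counts here and below stand against 8.32% of all genes higher in the NAc and 17.7% higher in the PFCx. For a gene whose mean reached 1 FPKM in a single tissue, the filter itself fixed which tissue had the higher mean.

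**Figure D2:**
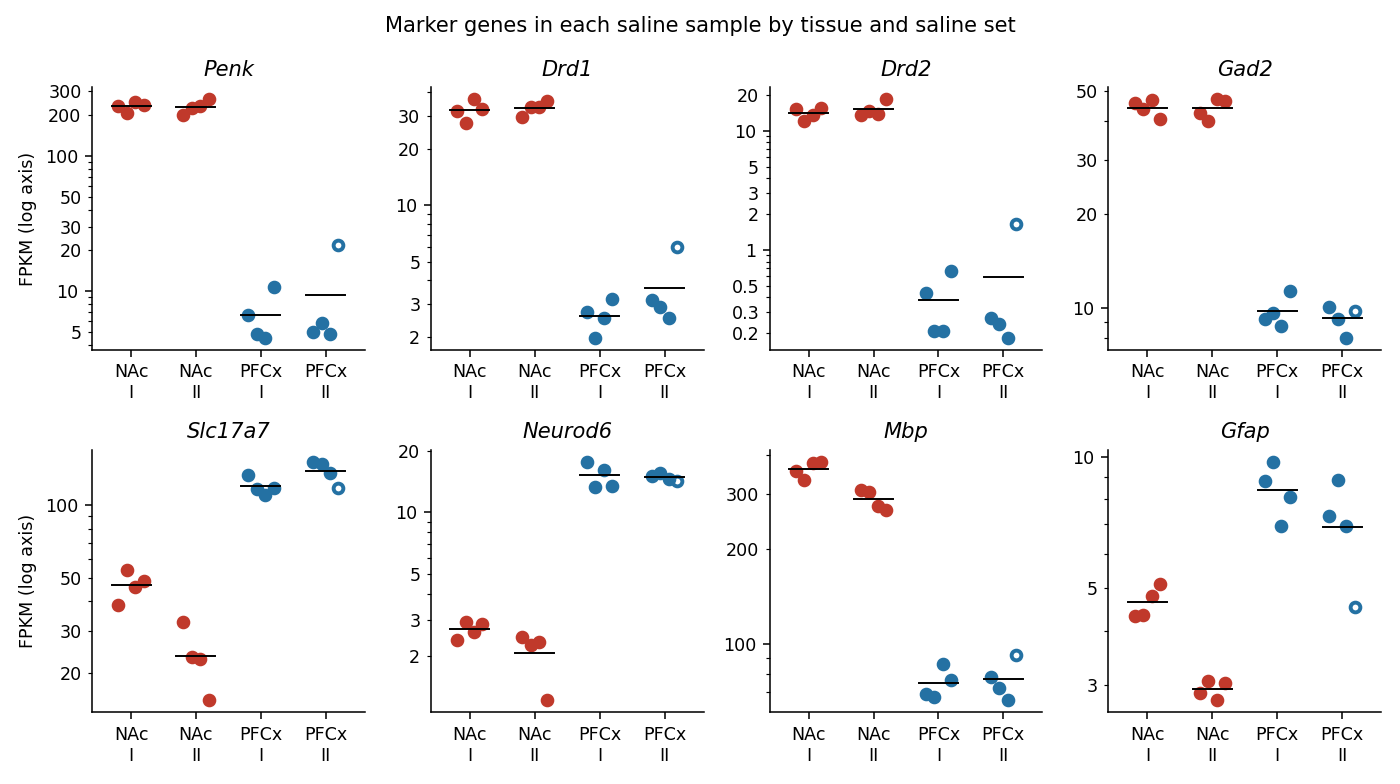
FPKM on a log axis of 8 marker genes in each of the 16 saline samples, by tissue and saline set (4 samples each). Points are samples, bars are group means, and the open point is replicate 4 of PFCx set II. Penk, Drd1, Drd2, Gad2 and Mbp were higher in every NAc sample, Slc17a7 and Neurod6 in every PFCx sample, and the open point is the highest PFCx value for Penk, Drd1 and Drd2.

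Genes for GABA synthesis and release were higher in the NAc. Of 10 tested, 9 passed. Gad2, a GABA-synthesizing glutamate decarboxylase, was at 40.2 to 47.1 FPKM (median 44.7) in the NAc and 7.99 to 11.3 FPKM (median 9.41) in the PFCx (log2 difference 2.11 ± 0.06 (SE), adjusted p = 1.55e-12). Slc32a1, the vesicular GABA transporter, was at 19.2 to 29.1 FPKM (median 23.9) in the NAc and 3.11 to 5.98 FPKM (median 4.66) in the PFCx (log2 difference 2.13). The other decarboxylase gene, Gad1, differed less, at 61.7 to 88.98 FPKM (median 67.2) in the NAc and 30.6 to 39.5 FPKM (median 33.5) in the PFCx (log2 difference 1.01). Gad1 and Gad2 did not overlap between the tissues. Dlx6 (1.58) and its antisense neighbour Dlx6os1 (0.94) both passed, but whether the counting used the strand is not given in the sources used here, so their reads cannot be told apart.

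Cholinergic interneurons are a small striatal class. Of the 7 genes listed for them, 3 passed the filter on low values and all 3 were higher in the NAc. Chat, which makes acetylcholine, was at 0.918 to 1.49 FPKM (median 1.19) in the NAc and 0.115 to 0.216 FPKM (median 0.167) in the PFCx (log2 difference 0.89, adjusted p = 5.5e-09). The choline transporter Slc5a7 (1.17) and the protease gene Ecel1 (1.70) shared this direction. Chat and Ecel1 reached the filter's mean of 1 FPKM in the NAc only, so the filter itself fixed which tissue had their higher mean. The count of this list is therefore not evidence of a direction.

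Of 13 tested genes listed for GABAergic interneuron subtypes, none was higher in the NAc and 3 were higher in the PFCx, against 8.32% and 17.7% of all genes. Whether these genes, Cck among them, are limited to interneurons was not tested. Vip and Cck are described with the peptides below, and the calcium buffer gene Pvalb was at 0.691 to 1.46 FPKM (median 1.05) in the NAc and 1.38 to 2.69 FPKM (median 1.89) in the PFCx (log2 difference -0.55, adjusted p = 7.23e-05). The Pvalb samples overlapped between the tissues. The somatostatin gene Sst was at 26.2 to 38.9 FPKM (median 31.1) in the NAc and 17.2 to 36.1 FPKM (median 23.4) in the PFCx. Npy, the neuropeptide Y gene, was at 9.32 to 16.4 FPKM (median 11.7) in the NAc and 6.88 to 12.8 FPKM (median 9.68) in the PFCx. Their log2 differences of 0.33 and 0.35 did not pass (adjusted p = 0.00114 and 0.0105), and the ranges overlapped. Reln (0.18) and Lhx6 (0.08) did not pass either.

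Neuropeptide precursors differed in both directions. Of 18 tested, 6 were higher in the NAc, and 6 were PFCx-higher, and 10 of the 12 differed by at least 1. Those higher in the NAc were Penk, Tac1, Pdyn, Cartpt, Nts and Scg2, and those higher in the PFCx by at least 1 were Cck, Vip, Adcyap1 and Grp. RefSeq windows of 250 bases before the gene start (GRCm38.p6) were read for 8 of these 10 genes. Several peptide genes are known to respond to cyclic AMP through a response element whose core is TGACG, or CGTCA on the other strand. The 5 windows here show peptide genes of both directions, in lower case and with every TGACG or CGTCA in capitals.
Pdyn, chr2:129699939-129700188, minus strand, higher in the NAc: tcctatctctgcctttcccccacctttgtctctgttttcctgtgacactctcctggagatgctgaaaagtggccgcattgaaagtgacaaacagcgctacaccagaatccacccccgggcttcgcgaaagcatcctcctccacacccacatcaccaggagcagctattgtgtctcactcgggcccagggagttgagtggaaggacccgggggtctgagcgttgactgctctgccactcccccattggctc
Cartpt, chr13:99900684-99900933, minus strand, higher in the NAc: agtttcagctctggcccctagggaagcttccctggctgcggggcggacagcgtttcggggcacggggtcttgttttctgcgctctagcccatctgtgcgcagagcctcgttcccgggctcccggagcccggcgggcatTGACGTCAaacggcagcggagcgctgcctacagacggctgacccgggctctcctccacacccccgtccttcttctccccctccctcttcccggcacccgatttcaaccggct
Nts, chr10:102490419-102490668, minus strand, higher in the NAc: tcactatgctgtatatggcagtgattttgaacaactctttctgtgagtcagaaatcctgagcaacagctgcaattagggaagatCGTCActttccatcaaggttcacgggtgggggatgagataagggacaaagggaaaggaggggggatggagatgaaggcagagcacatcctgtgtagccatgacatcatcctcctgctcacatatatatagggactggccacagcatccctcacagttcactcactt
Cck, chr9:121495695-121495944, minus strand, higher in the PFCx: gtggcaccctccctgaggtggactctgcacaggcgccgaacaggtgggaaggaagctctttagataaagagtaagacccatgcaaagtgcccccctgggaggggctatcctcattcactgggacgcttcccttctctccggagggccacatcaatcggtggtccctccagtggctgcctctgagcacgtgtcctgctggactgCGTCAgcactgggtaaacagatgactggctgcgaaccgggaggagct
Vip, chr10:5638968-5639217, plus strand, higher in the PFCx: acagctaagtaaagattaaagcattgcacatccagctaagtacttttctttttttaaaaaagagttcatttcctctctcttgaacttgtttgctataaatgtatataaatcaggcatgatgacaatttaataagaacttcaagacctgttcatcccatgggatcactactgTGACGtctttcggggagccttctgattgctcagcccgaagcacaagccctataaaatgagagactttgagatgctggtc
The core was found in 7 of the 8 windows, in either orientation, and in 17.8% of all 32851 windows of the same length. Among the genes of this comparison with a window, 2985 of 9628 (31.0%) held it. The first base of the match lay 47 bases before the start in Cck, 79 in Vip and 166 in Nts. Cartpt held both orientations overlapping as 1 palindrome, 112 and 109 bases before the start, and Scg2 likewise at 68 and 65. Tac1 held it at 197 and 43 bases and Adcyap1 at 242, and the letters are not in the Pdyn window. The windows with the core belong to genes of both directions, and a match describes the sequence only.

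Cartpt encodes the CART peptides, which occur in accumbal medium spiny neurons, and was at 10.98 to 14.9 FPKM (median 11.3) in the NAc and 0.287 to 1.83 FPKM (median 0.688) in the PFCx (log2 difference 2.88 ± 0.11 (SE), adjusted p = 1.02e-11). Nts, the neurotensin precursor, was at 2.48 to 3.80 FPKM (median 2.81) in the NAc and 0.146 to 0.476 FPKM (median 0.184) in the PFCx (log2 difference 1.68). Scg2, a secretory granule protein and peptide precursor, was at 54.5 to 65.97 FPKM (median 61.4) in the NAc and 21.5 to 28.8 FPKM (median 23.1) in the PFCx (log2 difference 1.29). All 3 genes, whose tissue ranges did not overlap, were higher in the NAc.

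Cck, the cholecystokinin precursor, was at 2.96 to 17.3 FPKM (median 7.72) in the NAc and 12.3 to 61.05 FPKM (median 45.9) in the PFCx (log2 difference -2.24 ± 0.19 (SE), adjusted p = 1.17e-07). The lowest PFCx value was replicate 4 of set II and overlapped the NAc range. Vip, made by a class of cortical interneurons, was at 0.625 to 1.95 FPKM (median 1.10) in the NAc and 7.51 to 10.5 FPKM (median 9.32) in the PFCx (log2 difference -2.20 ± 0.10 (SE), adjusted p = 6.12e-11). Adcyap1, the precursor of PACAP, was at 0.449 to 0.990 FPKM (median 0.658) in the NAc and 4.52 to 6.10 FPKM (median 5.54) in the PFCx. Grp, the gastrin-releasing peptide precursor, was at 0 to 0.233 FPKM (median 0.0816) in the NAc and 2.79 to 7.57 FPKM (median 4.90) in the PFCx, with 3 NAc samples listed at 0, all of set I. Adcyap1 and Grp did not overlap between tissues. The granin gene Chgb (-0.73) and Cort (-0.51) were also higher in the PFCx. Cort was at 0.161 to 0.536 FPKM in the NAc, 1.22 to 1.81 FPKM in PFCx set I and 0.314 to 0.869 FPKM in PFCx set II. Its PFCx set II samples thus overlapped the NAc range.

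Among the 12 genes with the largest PFCx excess under the naming rule were C1ql3, Pter, Nrn1, Grp, Neurod6, Car10, Stx1a, Trbc2, Vip, Nptxr and Hkdc1. C1ql3, a secreted synaptic protein of the complement C1q family, was at 0.869 to 2.93 FPKM (median 2.03) in the NAc and 14.3 to 22.4 FPKM (median 18.7) in the PFCx, a 9.77-fold higher mean in the PFCx (log2 difference -2.80 ± 0.12 (SE), adjusted p = 2.53e-11). Pter was at 1.28 to 3.29 FPKM (median 1.70) in the NAc and 15.9 to 22.1 FPKM (median 18.5) in the PFCx. The gene C1ql3 at chr2:13003457-13011806 and Pter at chr2:12924041-13003455 lie end to end, so reads near the shared boundary could belong to either. Nrn1, a neurite-promoting protein known to be induced by activity, was at 2.28 to 8.38 FPKM (median 6.15) in the NAc and 25.1 to 40.2 FPKM (median 34.2) in the PFCx. Stx1a, a syntaxin of the vesicle release machinery, was at 6.09 to 16.1 FPKM (median 13.1) in the NAc and 40.6 to 67.4 FPKM (median 58.4) in the PFCx (log2 difference -2.22). Nptxr, the neuronal pentraxin receptor, was at 10.2 to 24.7 FPKM (median 17.2) in the NAc and 62.5 to 84.5 FPKM (median 75.7) in the PFCx. Every PFCx sample lay above every NAc sample for these genes.

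Of 18 cortical glutamatergic genes tested, 17 were higher in the PFCx, 16 of the 18 did not overlap, and the median difference was -1.49. Slc17a7 encodes the vesicular glutamate transporter VGLUT1 and was at 15.4 to 53.6 FPKM (median 35.5) in the NAc and 111 to 152 FPKM (median 127) in the PFCx (log2 difference -1.95 ± 0.12 (SE), adjusted p = 1.73e-09). Its tissue difference was -1.35 in set I and -2.55 in set II, and the sets differed (adjusted p = 0.00836). Neurod6, a bHLH factor of projection neurons, was at 1.21 to 2.90 FPKM (median 2.42) in the NAc and 13.4 to 17.6 FPKM (median 14.8) in the PFCx. These genes were separated in every sample, and so was the transcription factor gene Mef2c (-2.09). Camk2a, the postsynaptic kinase also abundant in medium spiny neurons, differed less, at 93.7 to 120.5 FPKM (median 107) in the NAc and 153 to 225 FPKM (median 193) in the PFCx (log2 difference -0.81). Lmo3, listed as cortical, went against the list, at 28.7 to 34.6 FPKM (median 32.2) in the NAc and 14.4 to 18.7 FPKM (median 15.50) in the PFCx (log2 difference 0.95 ± 0.06 (SE), adjusted p = 3.39e-09). The list summed to 253 to 361 FPKM in the NAc and 679 to 832 FPKM in the PFCx, and replicate 4 of NAc set II was lowest of the NAc samples for 10 of its 18 genes.

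Layer genes did not share a direction. For layers 2 to 4, 5 of 9 tested were higher in the PFCx and 2 in the NAc. Cux2, a homeobox gene of upper layers, was at 4.77 to 8.32 FPKM (median 5.80) in the NAc and 13.9 to 24.6 FPKM (median 20.2) in the PFCx, and Rasgrf2 differed by -1.66. Wfs1 (1.29) and Cux1 (0.61) were higher in the NAc, with Wfs1 at 18.99 to 30.7 FPKM (median 24.4) in the NAc and 8.17 to 10.5 FPKM (median 9.64) in the PFCx. For layers 5 and 6, 7 of 17 were higher in the PFCx and 7 in the NAc. Fezf2, which specifies corticospinal neurons, was at 0.370 to 0.828 FPKM (median 0.683) in the NAc and 4.38 to 6.26 FPKM (median 5.31) in the PFCx (log2 difference -1.91 ± 0.07 (SE), adjusted p = 7.1e-12). Etv1 (-1.24), Rprm (-1.19), Npr3 (-0.98), Deptor (-0.89), Ntsr1 (-0.71) and Tshz2 (-0.39) shared this direction. The 7 in the other direction were Syt6 (1.90), Pcp4 (1.28), Foxp2 (1.10), Nr4a2 (0.81), Tle4 (0.77), Crym (0.66) and Ctgf (0.62), of which Foxp2 and Pcp4 are also known in medium spiny neurons.

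Transcription factors of the subpallial and pallial lists differed in opposite directions. Of 21 subpallial factors tested, 17 were higher in the NAc and none in the PFCx (median difference 1.10). The retinoic acid receptor genes Rarb (2.59) and Rxrg (2.33) had the largest differences, with Rarb at 11.98 to 15.3 FPKM (median 13.1) in the NAc and 1.09 to 2.40 FPKM (median 1.30) in the PFCx. Six3, needed for indirect-pathway neurons, was at 2.73 to 4.22 FPKM (median 3.58) in the NAc and 0.236 to 0.534 FPKM (median 0.341) in the PFCx (log2 difference 1.76 ± 0.07 (SE), adjusted p = 1.43e-11), and its antisense partner Six3os1 (1.47) cannot be told apart from it here. Foxo1 (1.59), Tshz1 (1.52) and Dlx5 (1.25) were higher by over 1 as well. Lhx6, a factor of cortical and striatal interneurons, was among the 4 that did not pass (0.08, adjusted p = 0.39).

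Of 28 pallial factors, 19 were higher in the PFCx and 4 in the NAc (median difference -1.05). Bhlhe22 was at 0.379 to 0.832 FPKM (median 0.564) in the NAc and 3.57 to 5.16 FPKM (median 4.63) in the PFCx. Zbtb18 was at 13.6 to 19.1 FPKM (median 16.5) in the NAc and 45.9 to 67.9 FPKM (median 60.02) in the PFCx. Tbr1, a factor of early-born cortical neurons, was at 1.72 to 4.58 FPKM (median 3.46) in the NAc and 9.41 to 13.1 FPKM (median 11.1) in the PFCx. None of these 3 overlapped between the tissues. Nr2f1 (-1.52), Satb1 (-1.61), Neurod2 (-1.51) and Lmo4 (-1.41) shared the direction. The 4 against it were Cux1 (0.61), Tle4 (0.77), Pou3f1 (0.61) and Bcl11a (0.38).

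**Figure D3:**
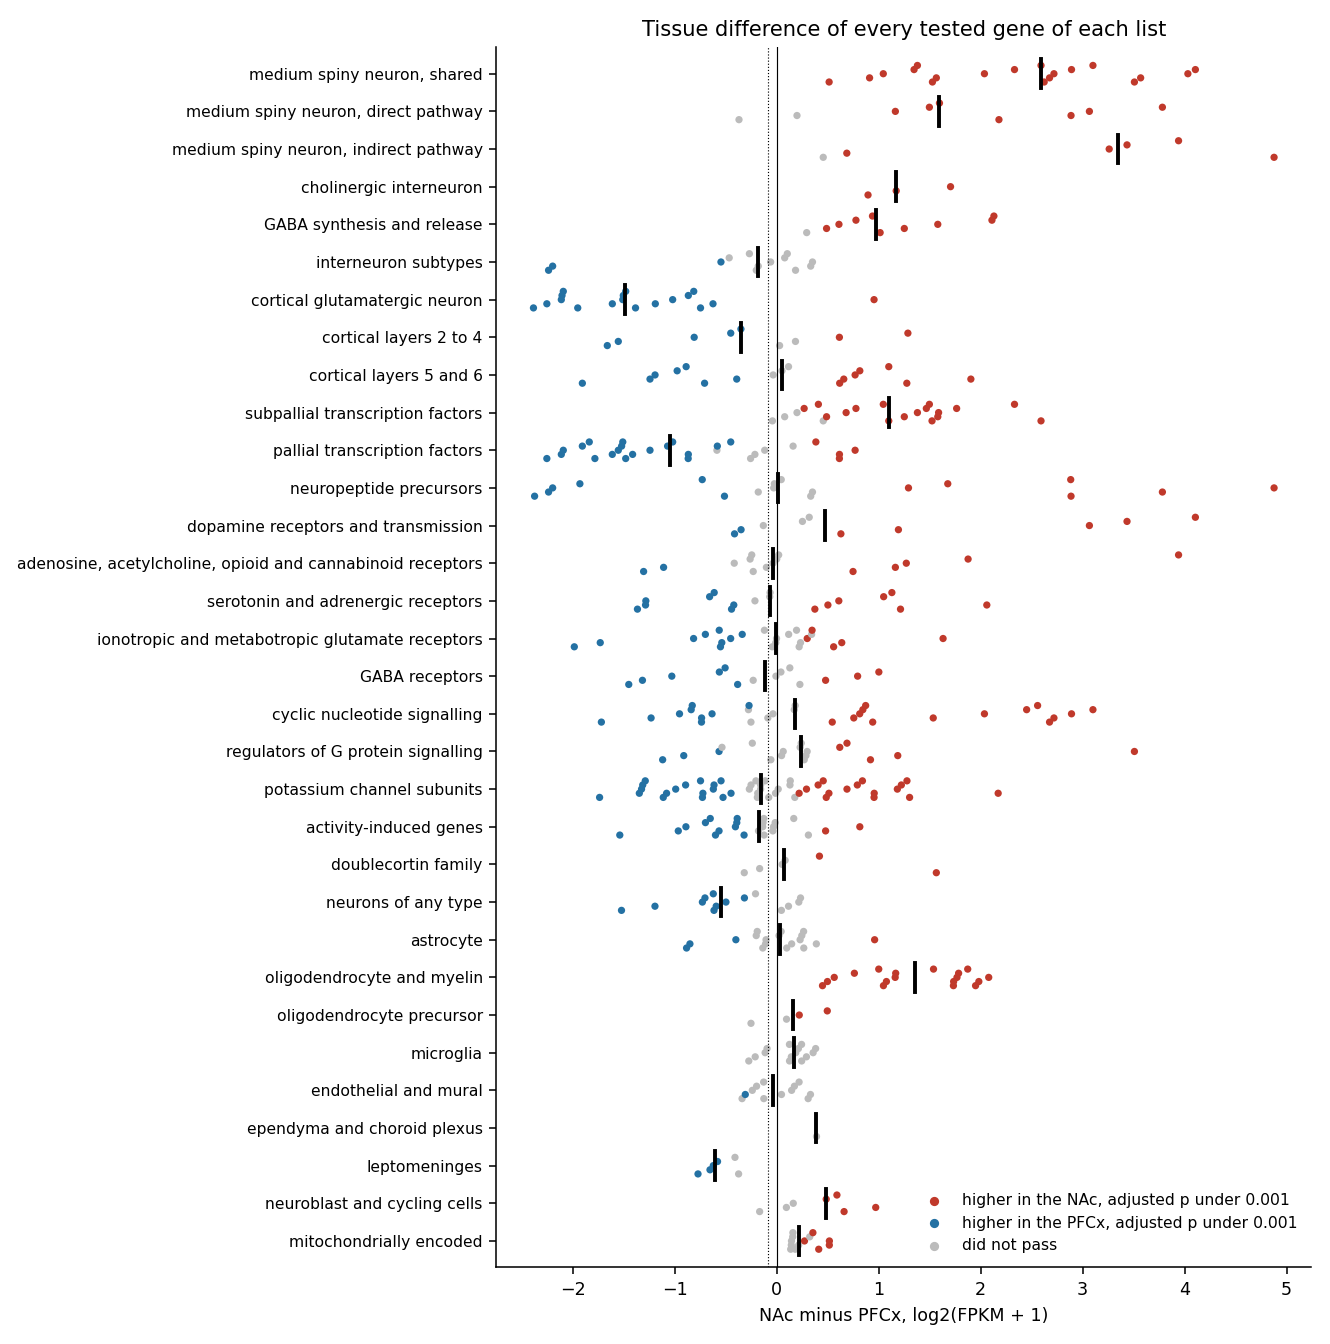
Tissue difference of every tested gene of each fixed list, as NAc minus PFCx on the log2(FPKM + 1) scale. Red points were higher in the NAc and blue points higher in the PFCx at an adjusted p under 0.001 (limma), grey points did not pass, the bar is the list's median and the dotted line the median of all genes (-0.08). The shared medium spiny list lies wholly to the right at a median of 2.59, the myelin list at 1.35, and 17 of 18 cortical glutamatergic genes lie to the left.

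Dopamine receptor genes were higher in the NAc. Besides Drd1 and Drd2, the D3 receptor gene Drd3 was at 1.24 to 2.13 FPKM (median 1.48) in the NAc and 0.0409 to 0.304 FPKM (median 0.102) in the PFCx (log2 difference 1.19 ± 0.06 (SE), adjusted p = 1.95e-10). Of 10 dopamine genes tested, 5 were higher in the NAc, and 2 were PFCx-higher. The latter were the monoamine oxidases Maoa (-0.41) and Maob (-0.35). The call of Maob was lost on leaving out any of 12 of the 16 samples (adjusted p up to 0.00246). Th, the rate-limiting enzyme of dopamine synthesis, was at 0.848 to 1.70 FPKM (median 1.27) in the NAc and 0.283 to 0.535 FPKM (median 0.499) in the PFCx (log2 difference 0.63).

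Of 15 adenosine, acetylcholine, opioid and cannabinoid receptor genes, 5 were higher in the NAc, and 2 were PFCx-higher. The kappa opioid receptor gene Oprk1 was at 6.10 to 7.51 FPKM (median 6.95) in the NAc and 0.893 to 1.87 FPKM (median 1.03) in the PFCx (log2 difference 1.88). The mu receptor gene Oprm1 was at 5.98 to 8.83 FPKM (median 7.06) in the NAc and 1.71 to 3.000 FPKM (median 2.45) in the PFCx (log2 difference 1.27). Oprd1, the delta receptor gene, did not pass (-0.23, adjusted p = 0.00212). Cnr1, the cannabinoid CB1 receptor gene, was at 6.84 to 10.5 FPKM (median 8.93) in the NAc and 19.2 to 21.3 FPKM (median 20.3) in the PFCx. Both Cnr1 and the muscarinic M3 receptor gene Chrm3 (-1.31) were higher in the PFCx. Tacr1, the substance P receptor gene, was higher in the NAc (0.75).

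Serotonin, adrenergic and histamine receptor genes were divided evenly, with 7 of 17 higher in each tissue. The serotonin 2C receptor gene Htr2c was at 16.6 to 20.003 FPKM (median 18.6) in the NAc and 2.70 to 4.43 FPKM (median 3.90) in the PFCx (log2 difference 2.06 ± 0.08 (SE), adjusted p = 1.21e-11). Htr1b (1.13), Htr1d (1.05) and Adra2c (1.21) were also higher in the NAc by at least 1. Toward the PFCx, the alpha1 adrenergic receptor gene Adra1d was at 0.0606 to 0.594 FPKM (median 0.150) in the NAc and 1.23 to 2.69 FPKM (median 2.24) in the PFCx, and Adra1b differed by -1.28. The histamine H1 receptor gene Hrh1 was at 0.689 to 1.32 FPKM (median 1.08) in the NAc and 2.80 to 5.16 FPKM (median 4.24) in the PFCx. The tissues did not overlap for Htr2c, Adra1d, Adra1b or Hrh1. Htr2a, the serotonin 2A receptor gene, was at 4.47 and 4.94 FPKM in the NAc and PFCx at the median and did not pass (-0.07, adjusted p = 0.47).

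Glutamate receptor genes differed in both directions. Of 23 tested, 9 were higher in the PFCx and 5 in the NAc, and with each sample scaled to its 75th percentile these counts became 8 and 9. The metabotropic receptor gene Grm2 was at 0.595 to 1.34 FPKM (median 0.898) in the NAc and 4.77 to 7.75 FPKM (median 6.68) in the PFCx (log2 difference -1.99 ± 0.09 (SE), adjusted p = 7.75e-11), and Grm8 (-1.73) was likewise higher in the PFCx. Grm4, which inhibits adenylyl cyclase, was at 7.05 to 9.09 FPKM (median 7.94) in the NAc and 1.37 to 2.46 FPKM (median 1.90) in the PFCx (log2 difference 1.63). It was higher in the NAc, as was Grm5 (0.56). Grik2 (0.64), Grm7 (0.35) and Grik5 (0.30) were the other members higher in the NAc, of which Grik5 lost its call on leaving out any of 11 of the 16 samples (adjusted p up to 0.00212). The AMPA receptor gene Gria2 (-0.04, adjusted p = 0.479) and the NMDA receptor gene Grin1 (0.12, adjusted p = 0.0979) did not pass.

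Of 14 GABA receptor genes, 6 were higher in the PFCx and 3 in the NAc, against 17.7% and 8.32% of all genes. Gabbr2, a subunit of the metabotropic GABA-B receptor, was at 7.41 to 12.8 FPKM (median 9.42) in the NAc and 22.7 to 30.7 FPKM (median 28.5) in the PFCx (log2 difference -1.45 ± 0.07 (SE), adjusted p = 2.82e-10). Its obligate partner Gabbr1 was at 87.9 and 87.7 FPKM in the NAc and PFCx at the median and did not pass (0.04, adjusted p = 0.522). The ionotropic subunit gene Gabra3 (-1.32) was higher in the PFCx, and Gabrd, the delta subunit of extrasynaptic receptors, was at 10.2 to 14.4 FPKM (median 11.95) in the NAc and 4.47 to 6.23 FPKM (median 5.68) in the PFCx. Gabrg3 (0.79) and Gabrg1 (0.48) were higher in the NAc as well.

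Cyclic nucleotide signalling genes differed within each enzyme family. Of 29 tested, 14 were higher in the NAc, and 9 were PFCx-higher. Among adenylyl cyclases, which make cyclic AMP, Adcy5 was higher in the NAc, while the calcium-stimulated Adcy1 was at 9.22 to 15.7 FPKM (median 13.4) in the NAc and 37.9 to 50.6 FPKM (median 43.2) in the PFCx (log2 difference -1.72 ± 0.08 (SE), adjusted p = 4.44e-11), and Adcy2 (-1.23) and Adcy8 (-0.95) were higher in the PFCx. Phosphodiesterases degrade cyclic nucleotides, and of these Pde1b was at 84.4 to 108 FPKM (median 97.9) in the NAc and 11.5 to 20.5 FPKM (median 13.4) in the PFCx (log2 difference 2.72). Pde7b (2.45) was higher in the NAc as well. Pde1a (-0.83) and Pde4d (-0.74) went toward the PFCx. Of the G protein alpha subunits, Gnal, the olfactory type that couples D1 receptors in the striatum, was at 46.99 to 54.9 FPKM (median 51.002) in the NAc and 10.5 to 14.8 FPKM (median 11.4) in the PFCx. The related Gnas had the opposite direction (-0.74). The gamma subunit gene Gng7 was at 70.5 to 90.3 FPKM (median 79.6) in the NAc and 7.11 to 12.1 FPKM (median 8.17) in the PFCx. Prkch, a protein kinase C, was at 7.70 to 9.40 FPKM (median 8.68) in the NAc and 0.460 to 0.927 FPKM (median 0.623) in the PFCx (log2 difference 2.56 ± 0.07 (SE), adjusted p = 6.41e-13).

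RGS proteins shorten G protein signals. Of 18 genes of this list, 5 were higher in the NAc, and 3 were PFCx-higher, against 8.32% and 17.7% of all genes, and with 75th percentile scaling these counts were 8 and 3. Rgs9, whose long form is striatal, was at 58.03 to 76.9 FPKM (median 64.6) in the NAc and 3.70 to 12.5 FPKM (median 4.12) in the PFCx (log2 difference 3.51 ± 0.17 (SE), adjusted p = 1.58e-10). Rgs8 (1.19), Rgs10 (0.92), Rgs14 (0.69) and Rgs2 (0.62) shared the direction, against Rgs6 (-1.12), Rgs7 (-0.91) and Rgs4 (-0.57).

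Of 47 potassium channel genes, 16 were higher in the NAc, and 17 were PFCx-higher. The voltage-gated subunit Kcna5 was at 5.17 to 6.54 FPKM (median 5.51) in the NAc and 0.312 to 0.550 FPKM (median 0.480) in the PFCx (log2 difference 2.17 ± 0.05 (SE), adjusted p = 4.85e-13). Kcna4 (1.28), the A-type channel partner Kcnip2 (1.30), the beta subunit Kcnab1 (1.22) and the leak channel Kcnk2 (1.18) were also higher in the NAc. Toward the PFCx, Kcnh7 was at 3.22 to 6.41 FPKM (median 4.85) in the NAc and 17.8 to 20.7 FPKM (median 18.9) in the PFCx (log2 difference -1.74 ± 0.08 (SE), adjusted p = 7.47e-11). The G protein-gated channel genes Kcnj3 (-1.29), Kcnj6 (-1.35) and Kcnj9 (-1.32) were all higher in the PFCx.

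Activity-induced genes were mostly higher in the PFCx where they differed, as were the called genes as a whole. Of 23 tested, 11 were higher in the PFCx and 2 in the NAc, against 17.7% and 8.32% of all genes, and 10 did not pass. These counts were 2 and 1 in set I alone and 7 and 0 in set II alone. In all 6 drugs, 4 of the called members differed the same way. Bdnf, the brain-derived neurotrophic factor gene, was at 0.385 to 1.08 FPKM (median 0.621) in the NAc and 2.94 to 4.38 FPKM (median 3.91) in the PFCx (log2 difference -1.54 ± 0.06 (SE), adjusted p = 2.82e-11). Nptx2 (-0.97) was higher in the PFCx as well. Fos, an immediate early transcription factor, was at 1.59 to 3.40 FPKM (median 2.45) in the NAc and 3.31 to 6.59 FPKM (median 5.46) in the PFCx (log2 difference -0.89, adjusted p = 4.23e-06). All mice were killed 2 h after an injection, so these are not levels of uninjected animals. Nr4a2 (0.81) and Sgk1 (0.48) were higher in the NAc. Arc was at 5.12 to 7.50 FPKM (median 6.56) in the NAc and 5.36 to 10.1 FPKM (median 6.78) in the PFCx (log2 difference -0.13, adjusted p = 0.199), and its tissue difference was 0.18 in set I and -0.43 in set II (adjusted p of the set difference = 0.0496).

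Oligodendrocyte genes were higher in the NAc without exception among the 18 listed, all free of overlap, with a median difference of 1.35. Mbp, myelin basic protein, was at 266 to 379 FPKM (median 321) in the NAc and 65.97 to 92.04 FPKM (median 74.4) in the PFCx (log2 difference 2.08 ± 0.07 (SE), adjusted p = 6.82e-12). Every NAc sample lay above every PFCx sample for all 18 genes. Mobp, another myelin protein gene, differed by 1.98. The lineage factors Olig1 (0.76), Olig2 (0.45) and Sox10 (0.50) differed less than the myelin genes Cldn11 (1.95), Mag (1.78) and Mog (1.54). The list summed to 798 to 914 FPKM in NAc set I, 670 to 740 FPKM in NAc set II and 177 to 242 FPKM in the PFCx. Of 4 precursor genes tested, Enpp6 (0.50) and Gpr17 (0.22) were higher in the NAc, and Pdgfra (-0.25, adjusted p = 0.0257) did not pass. The call of Gpr17 was lost on leaving out any of 14 of the 16 samples (adjusted p up to 0.00202).

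Of 18 astrocyte genes, 14 did not pass, 3 were higher in the PFCx and 1 in the NAc, near the 17.7% and 8.32% of all genes. With 75th percentile scaling 4 were higher in the NAc. Gfap, the astrocyte intermediate filament gene, was at 2.77 to 5.12 FPKM (median 3.69) in the NAc and 4.52 to 9.74 FPKM (median 7.70) in the PFCx (log2 difference -0.85 ± 0.10 (SE), adjusted p = 2.67e-06), with replicate 4 of PFCx set II as the lowest PFCx sample, within the NAc range. Gjb6 (-0.89) and Aqp4 (-0.40) were also higher in the PFCx, and the bicarbonate transporter gene Slc4a4 was higher in the NAc, at 22.6 to 31.1 FPKM (median 23.4) in the NAc and 10.03 to 14.8 FPKM (median 12.9) in the PFCx. The glutamate transporter genes Slc1a2 (-0.20, adjusted p = 0.00148) and Slc1a3 (0.10, adjusted p = 0.245) did not pass.

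None of the 14 microglial genes passed in either direction (limma), their differences running from -0.27 to 0.38, and 3 were higher in the NAc with 75th percentile scaling. The complement gene C1qc was at 7.02 and 5.08 FPKM in the NAc and PFCx at the median. Of 12 endothelial and mural genes, Tek (-0.31) was higher in the PFCx, a call lost on leaving out any of 7 of the 16 samples (adjusted p up to 0.00112), and Cldn5 (0.15, adjusted p = 0.236) did not pass. Of 9 leptomeningeal genes, 6 were tested and 4 of them were higher in the PFCx, among them Slc13a4 (-0.77) and Col1a2 (-0.66). In set I alone 1 member was called higher in the PFCx, and 1 in set II alone. Of the called members, 0 passed the same way in all 6 drugs. This list summed to 4.36 to 9.06 FPKM in the NAc and 9.54 to 17.04 FPKM in the PFCx, and its part in other differences was not tested. Of the ependymal and choroid plexus genes only Rarres2 passed the filter on low values, and it did not pass the test (0.38, adjusted p = 0.0295).

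Neuroblasts and dividing cells occur near the NAc in the subventricular zone. Sox11 (0.97), Igfbpl1 (0.66), Sox4 (0.59) and Cd24a (0.48) were higher in the NAc, 4 of 7 tested, while the doublecortin gene Dcx (-0.17, adjusted p = 0.0163) did not pass. Of 14 tested genes listed for neurons of any type, 9 were higher in the PFCx and none in the NAc. Whether these genes have equal levels in all neuron classes was not tested. The neuronal RNA-binding protein gene Elavl4 was at 4.49 to 8.44 FPKM (median 5.90) in the NAc and 16.9 to 23.9 FPKM (median 18.9) in the PFCx. The synaptic SNARE gene Snap25 was at 168 to 226 FPKM (median 203) in the NAc and 311 to 345 FPKM (median 322) in the PFCx, and Stmn2 differed by -1.20. Rbfox3, which encodes NeuN, did not pass (0.23, adjusted p = 0.0181). Of 13 mitochondrially encoded genes, 5 were higher in the NAc, led by mt-Cytb (0.52) and mt-Nd4l (0.52), and mt-Cytb lost its call on leaving out any of 13 of the 16 samples (adjusted p up to 0.00242). With transcripts under 300 bases left out and the rest rescaled, none of those still tested passed. In that setting mt-Nd4l was itself left out and so not tested.

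The tissue difference was repeated in the drug-treated samples, which hold none of the saline samples. In those groups 10.4 to 12.3% of the genes were higher in the NAc and 18.7 to 24.7% higher in the PFCx at an adjusted p under 0.05 (limma, 4 against 4). By drug these shares were 12% and 24.7% for haloperidol, 11.4% and 18.7% for ketamine, 12.3% and 24% for methamphetamine, 11.5% and 22.5% for mianserin, 12.2% and 24.3% for risperidone, and 10.4% and 23.2% for venlafaxine. Of the 4311 genes called after saline, 82.1% differed the same way after haloperidol, 72.5% after ketamine, 83.0% after methamphetamine, 78.4% after mianserin, 83.5% after risperidone and 77.7% after venlafaxine. In all 6 drugs 2403 genes (55.7%) did so. Of the 768 genes that differed by at least 1, 564 did, among them Penk, Drd1, Drd2, Gad2, Slc17a7, Mbp and C1ql3. Genes that passed in the opposite direction numbered 0 to 29 per drug.

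Set I and set II gave different tissue differences for 613 genes, 3.7% of those tested (adjusted p of the interaction under 0.05, limma). The longest transcript was under 300 bases for 344 of them (56.1%), against 1263 (7.63%) of all genes tested. Among genes with a longer transcript, 269 (1.76%) differed between sets. Of the 768 genes that differed by at least 1 over both sets, 703 had the same sign in each set and 562 passed in each. The tissue difference passed in both sets with opposite signs for 28 genes.

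The 8 genes with the lowest p of the interaction under the naming rule were copies of the spliceosomal U1 snRNA gene, which are near identical, so their reads could not be assigned with certainty. Rnu1a1, as an example, was at 209 to 287 FPKM in NAc set I, 1049 to 1410 FPKM in NAc set II, 2405 to 3898 FPKM in PFCx set I and 457 to 541 FPKM in PFCx set II. Its tissue difference was -3.50 in set I and 1.32 in set II. Longer genes, chosen after their values were seen, included the small nucleolar RNA host gene Snhg1, at 34.5 to 99.7 FPKM in NAc set I and 593 to 756 FPKM in NAc set II, against 301.0 to 455 FPKM and 169 to 229.6 FPKM in the PFCx sets. Eif4a1, a translation initiation factor whose gene hosts small nucleolar RNAs, had a difference of -0.35 in set I and 0.95 in set II. Rpl6, a ribosomal protein gene, had 0.14 and 1.51. Uchl1, an abundant neuronal deubiquitinase, had -0.28 and -1.13. The number of transcripts listed above 0 and the share of short transcripts moved with the sets too, and their part was not tested.

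**Figure D4:**
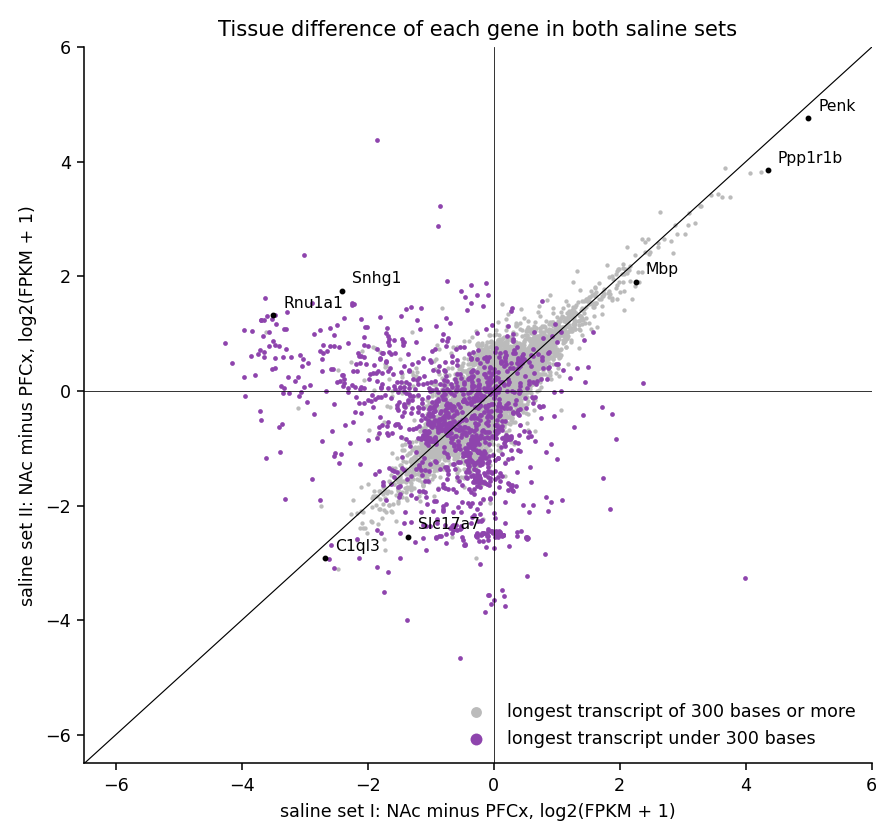
Tissue difference of each gene tested in saline set I (x axis) and saline set II (y axis), both NAc minus PFCx on the log2(FPKM + 1) scale with 4 samples per tissue and set. Purple points are genes whose longest transcript is under 300 bases, grey points are longer genes, black points are named, and the line marks equal differences. Penk, Ppp1r1b, Mbp and C1ql3 lie near the line, while Rnu1a1 (-3.50 and 1.32) and Snhg1 (-2.41 and 1.75) change sign.

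At the level of single transcripts, 29585 were tested, of which 1487 (5.03%) were higher in the NAc and 2463 (8.33%) higher in the PFCx. With a difference of at least 1 the counts were 441 (1.49%) and 639 (2.16%), and 489 (1.65%) differed between the sets. Isoforms of one gene share reads, so the estimate of one bears on the others. Of 5530 genes with at least 2 transcripts tested, 483 had at least 2 called, and 23 of these had transcripts called in opposite directions. The 8 with the largest differences were Synpr, Sgip1, Dclk1, Osbp2, Prkag2, Pdpk1, Tmem106b and Arpp21. The count depended on the samples, being 1 in set I alone and 9 in set II alone, with 4 samples per tissue each.

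Synpr encodes synaptoporin, a synaptic vesicle membrane protein. Its transcript ENSMUST00000112656 (chr14:13454057-13615459) was at 15.4 to 21.97 FPKM (median 19.8) in the NAc and 2.65 to 7.41 FPKM (median 5.13) in the PFCx (log2 difference 1.77 ± 0.14 (SE), adjusted p = 1.56e-07). ENSMUST00000070323 (chr14:13284780-13615459), which starts farther upstream and shares the same end, was at 0.634 to 5.93 FPKM (median 1.85) in the NAc and 5.92 to 12.4 FPKM (median 9.28) in the PFCx (log2 difference -1.69 ± 0.20 (SE), adjusted p = 1.1e-05). The former did not overlap between the tissues, and the latter overlapped by 1 NAc sample just above the lowest PFCx sample.

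Osbp2, an oxysterol-binding protein gene, likewise used different starts. ENSMUST00000070552, which spans chr11:3703731-3863903, was at 3.87 to 7.14 FPKM (median 6.29) in the NAc and 0.719 to 3.24 FPKM (median 1.82) in the PFCx, while the shorter ENSMUST00000102950 (chr11:3703731-3722216) was at 4.32e-05 to 2.98 FPKM (median 0.764) in the NAc and 4.82 to 6.94 FPKM (median 5.75) in the PFCx. Prkag2, a regulatory subunit of AMP-activated kinase, had ENSMUST00000114975 at 2.53 to 4.90 FPKM (median 4.16) in the NAc and 4.41e-05 to 3.04 FPKM (median 0.875) in the PFCx and the longer ENSMUST00000030784 at 1.24 to 2.70 FPKM (median 1.69) in the NAc and 4.998 to 7.32 FPKM (median 6.12) in the PFCx (log2 difference -1.34 ± 0.10 (SE)). In both genes each tissue favoured a different transcript. The endocytic adaptor gene Sgip1 had differences of 1.45 for ENSMUST00000080728 and -1.67 for ENSMUST00000072481. Arpp21, a cyclic AMP-regulated phosphoprotein gene, had 5 transcripts higher in the NAc and 6 higher in the PFCx. Its short ENSMUST00000160741 was at 11.2 to 50.8 FPKM (median 28.9) in the NAc and at most 3.10 FPKM in the PFCx, and its retained-intron transcript ENSMUST00000159667 was at 4.23 to 6.12 FPKM (median 4.49) in the NAc and 8.45 to 12.02 FPKM (median 9.92) in the PFCx. In Pdpk1 and Tmem106b the smaller of the opposite differences was -1.07 and 1.02. Leaving out 1 sample ended a call for Prkag2 ENSMUST00000114975 in 12 of 16 cases, for Tmem106b ENSMUST00000122916 in 13 and ENSMUST00000124234 in 15, and for Sgip1 ENSMUST00000072481 in 1 (without replicate 3 of PFCx set II), with adjusted p up to 0.00276.

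Dclk1 (chr3:55242364-55539068) encodes a doublecortin-like kinase. Its coding transcripts hold a microtubule-binding part, a kinase part, both or neither, and some of its transcripts are noncoding. As a gene it was at 83.8 to 111 FPKM (median 93.9) in the NAc and 103 to 147 FPKM (median 118) in the PFCx and did not pass (log2 difference -0.32 ± 0.07 (SE), adjusted p = 0.00134). Of its 15 transcripts 14 passed the filter on low values and 4 were called. The full-length ENSMUST00000054237 was at 1.86 to 14.5 FPKM (median 9.24) in the PFCx and at least 0.1 FPKM in 8 of 8 samples there, against 1 of 8 in the NAc, where replicate 4 of set I was at 7.93 FPKM and the median was 0.000367 (log2 difference -2.62 ± 0.42 (SE), adjusted p = 0.000204). The Dcl transcript ENSMUST00000167204, without the kinase part, was at 4.32 to 8.13 FPKM (median 5.49) in the NAc and 7.43 to 11.1 FPKM (median 9.30) in the PFCx (log2 difference -0.64 ± 0.09 (SE), adjusted p = 0.000108). The short noncoding ENSMUST00000197870 was also higher in the PFCx (log2 difference -2.002 ± 0.30 (SE), adjusted p = 0.000124).

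The Carp transcript ENSMUST00000199585, which codes for a short peptide without the microtubule-binding part or the kinase part, was higher in the NAc. It was at 1.004 to 4.75 FPKM (median 4.36) in the NAc and 0.0139 to 1.87 FPKM (median 0.643) in the PFCx (log2 difference 1.40 ± 0.19 (SE), adjusted p = 4.96e-05), and 1 NAc sample fell within the PFCx range. The kinase-only Cpg16 transcript ENSMUST00000198437 was the most abundant, at 28.9 to 34.3 FPKM (median 32.9) in the NAc and 21.3 to 32.7 FPKM (median 27.4) in the PFCx, and did not pass (log2 difference 0.24 ± 0.07 (SE), adjusted p = 0.0201). The other Cpg16 transcript, ENSMUST00000070418, had a difference of -0.05 ± 0.10 (SE) (adjusted p = 0.743) and the retained-intron ENSMUST00000198757 one of -0.02 ± 0.09 (SE) (adjusted p = 0.86). None of the 4 called transcripts was called in set I alone and 2 were in set II alone.

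**Figure D5:**
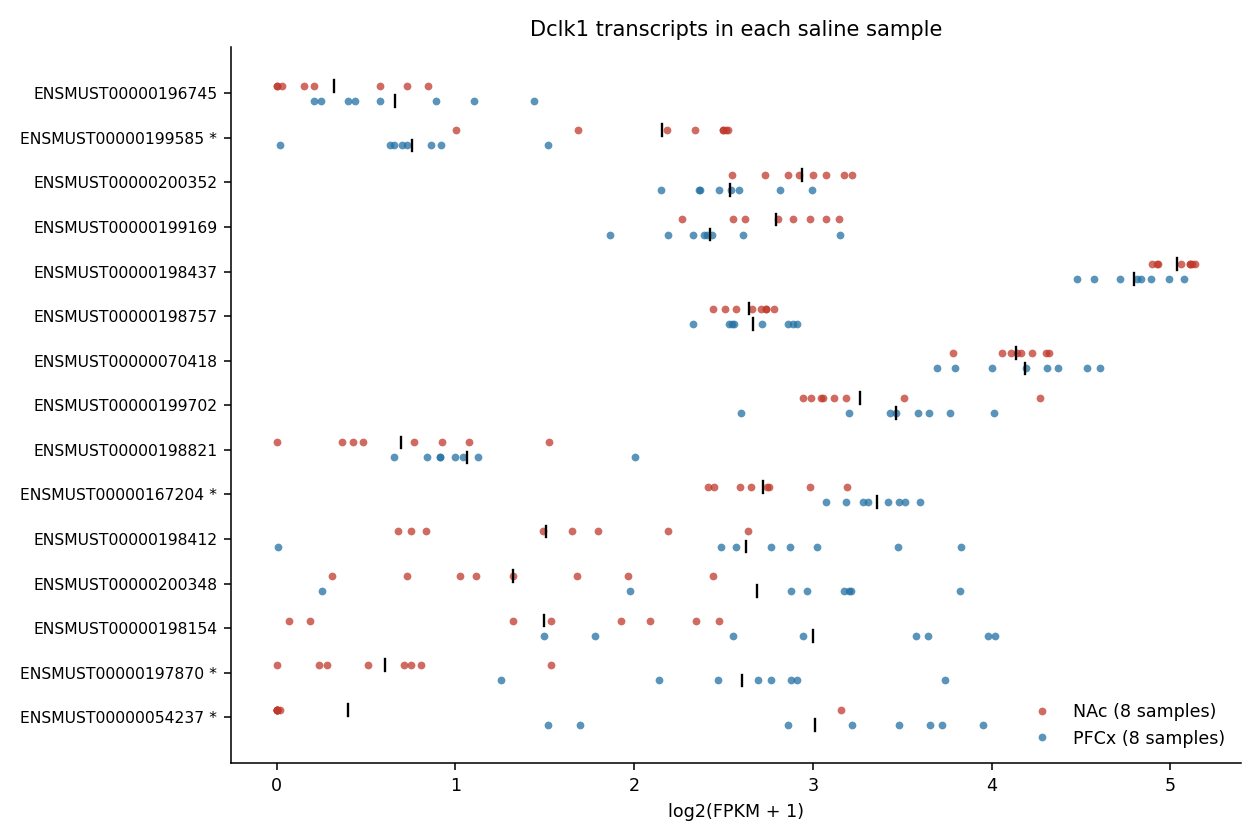
Level of the 15 Dclk1 transcripts in each of the 16 saline samples, as log2(FPKM + 1). Points are samples (8 per tissue), bars are the means of each tissue, and an asterisk marks the 4 called transcripts. The red points of ENSMUST00000054237 lie near 0 except 1, while its 8 blue points lie above 1.5, and ENSMUST00000199585 shows the opposite order.

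Among the other doublecortin family genes, Dclk3 was at 14.7 to 19.7 FPKM (median 17.7) in the NAc and 4.84 to 5.67 FPKM (median 5.32) in the PFCx (log2 difference 1.56 ± 0.06 (SE), adjusted p = 1.81e-11) and did not overlap between the tissues. Dclk2 (0.42) was higher in the NAc too. Of the 6 genes of the family tested, 2 were higher in the NAc, and Dclk3 was the only one of them to differ by at least 1.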

How the data were processed

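Total RNA depleted of ribosomal RNA was sequenced single-end on the Ion Proton. The authors aligned the reads first with TopHat (version 2.0.1) and then with Tmap (version 3.0.2), estimated transcript levels with Cufflinks 2.2.1 and an Ensembl annotation of mm10, and deposited 1 table per sample of 112714 transcripts with FPKM and read coverage. How reads matching several places were handled is not given in the sources used here. Any FPKM is relative to all mapped fragments of its sample, so a large class of short transcripts lowers the values of the other genes.

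FPKM was summed over the transcripts of each of 46686 symbols (72 of them with several gene identifiers) and tested as log2(FPKM + 1) with limma 3.58.1 in R 4.3.3, in a model of the 4 groups of tissue and saline set. Rows needed a mean of at least 1 FPKM in either tissue. Differences averaged both sets, and p-values were Benjamini-Hochberg adjusted over all rows tested. A difference was called at an adjusted p under 0.001, one between sets under 0.05. The limma steps, tested on simulated data, called 48 of 50 genes changed by 1 and 30 of 50 changed by 0.5. Of transcripts they called 35 of 50 and 9 of 50. The simulated log values were independent and normal around a single mean per row, without differences between sets, and changed rows were raised in the NAc only. These rates therefore need not hold for the real samples. Single values were compared by exact permutation within sets (numpy 2.4.6). Aligned bases were estimated as the median of deposited coverage divided by FPKM, taken over transcripts with 2000 or more bases and 5 or more FPKM. The tables hold no read counts, so no counting error is given.

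Named genes were any list member, with preference for large differences and members against their list's direction. Also named were, per direction, the 12 largest differences without overlap among genes with 1 identifier and a transcript of at least 500 bases, the 8 genes with the largest opposite transcript differences, the 8 with the lowest p between sets, and all Dclk1 transcripts. A few such genes are not reported here. The comparison and its lists were chosen with earlier results of these data known. The drug-treated samples were fitted separately, at an adjusted p under 0.05. Alternatives changed the pseudocount, filter, model, scaling, features, test and samples.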

Additional observations from a re-analysis of the deposited data

Results flagged for a closer look

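Among the 203 named genes, 406 groups of 8 samples of a tissue were searched for a sample far from the other 7 (gap over range above Dixon's 95% critical value), and 31 had one, where chance alone gives about 20.3. Of these, 19 were in replicate 4 of PFCx set II. It was the highest PFCx sample for Penk (21.8 FPKM), Ppp1r1b (22.1), Scn4b (10.5), Adora2a (2.26), Rgs9 (12.5), Syndig1l (2.58), Drd2 (1.66), Gng7 (12.1), Drd1 (6.01), Slc35d3 (0.399), Pde10a (26.1), Rarb (2.40), Oprk1 (1.87), Pde1b (20.5), Gnal (14.8) and Gabrg1 (3.80). The next PFCx sample for Penk was at 10.8 FPKM and for Drd2 at 0.667 FPKM. The same sample was the lowest of the PFCx for Bhlhe22 (3.57 FPKM), Gabbr2 (22.7) and Sox10 (0.52).

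The other samples far from their group were replicate 3 of NAc set I for Gad1 (89.0 FPKM), replicate 4 of NAc set II for Neurod6 (1.21) and Grm5 (54.2), and replicate 4 of NAc set I for Bcl11a (14.4) and Deptor (2.12). Adra1d stood apart in replicate 2 of NAc set I (0.594 FPKM) and Sox11 in replicate 1 of NAc set I (4.69). In the PFCx these were replicate 2 of set I for Grm5 (36.2) and Slc1a3 (66.9), replicate 3 of set I for Foxp1 (11.8), replicate 4 of set I for Grm7 (20.8) and replicate 2 of set II for Kcna5 (0.312).

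The tissue difference of set I minus that of set II passed an adjusted p under 0.05 (limma interaction) for the following named genes, given on the log2(FPKM + 1) scale. It was 1.2 for Slc17a7, 0.839 for Nptxr, 0.846 for Uchl1, 0.607 for Arc, 0.532 for Pou3f1 and 0.443 for Oprd1. It was -0.737 for Eya1, -0.734 for Grp, -1.29 for Eif4a1, -1.38 for Rpl6, -4.16 for Snhg1 and -4.82 for Rnu1a1.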

How the results depend on the processing

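Of 179 named genes that were called, 138 kept the call under all 30 alternatives and 41 lost it under at least 1. All 18 called transcripts lost it under at least 1. With pairs of values NAc-higher and PFCx-higher, a mean of at least 5 FPKM left 831 and 1857 genes and 674 and 1453 transcripts, 237 of the latter NAc-higher by at least 1. Set I alone gave 499 and 929 genes, 255 and 336 transcripts, and 230 and 281 transcripts by at least 1. Set II alone gave 783 and 1807 genes and 496 and 1022 transcripts. A pseudocount of 0.1 gave 488 and 1033 genes and 752 and 1154 transcripts by at least 1. Leaving out each sample in turn gave 1190 to 1339 and 2579 to 3115 genes. Without transcripts under 300 bases the counts were 1112 and 3361 genes, and the median gene difference was -0.13.

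The genes that differed between sets numbered 2208 with no filter, 1373 at a mean of at least 0.1 FPKM and 386 at 5. Such transcripts numbered 740 with no filter and 210 without those under 300 bases, and 320 to 679 on leaving out each sample, with 323 without replicate 4 of NAc set II and 320 without replicate 3 of PFCx set II. Genes with opposite transcripts numbered 10 with a pseudocount of 0.1, 15 with no filter, 13 at a mean of at least 5 FPKM, 1 in set I alone, 9 in set II alone, and 10 to 26 on leaving out each sample. They were 10 without replicate 3 of PFCx set II and 11 without replicate 1 of PFCx set I. They were 13 without replicate 1 or 4 of NAc set I or 4 of NAc set II. They were 14 without replicate 1 or 3 of NAc set II or 4 of PFCx set II, and 15 without replicate 2 of NAc set I, 2 of PFCx set II or 3 of PFCx set I. Dclk1 transcripts called were 0 in set I alone and 2 in set II alone. Where a smaller number of samples or rows does not account for a change, the cause was not tested.

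No pairing by replicate number showed in the values, which cannot exclude shared mice because each group holds only 4 samples. The deviations of same-numbered samples of both tissues correlated at -0.354 to 0.0869 over 8 pairs. Differently numbered samples of a set correlated at -0.158 to 0.349, and 2 of 8 NAc samples correlated best with their own number. With the replicate block, 961 and 2026 genes and 750 and 1156 transcripts were called. Of the 4311 genes called without the block, 2943 were also called with it. Under the block 362 genes and 225 transcripts differed between sets, 5 genes had opposite transcripts and 1 Dclk1 transcript was called.

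Signs reversed in set I alone for Ebf1 (-0.0555), Gria2 (0.0164), Gabbr1 (-0.0116), Arc (0.18), Eif4a1 (-0.35), ENSMUST00000070418 (0.21) and ENSMUST00000198757 (0.0292). In set II alone they reversed for Rnu1a1 (1.32) and Snhg1 (1.75). With 75th percentile scaling they reversed for Gria2 (0.0553), Htr2a (0.0165), ENSMUST00000070418 (0.0171) and ENSMUST00000198757 (0.0367), and without transcripts under 300 bases for Gabbr1 (-0.0397). On leaving out each sample, ENSMUST00000070418 ran from -0.0922 to 0.0125 and ENSMUST00000198757 from -0.0626 to 0.0258, above 0 without replicate 4 of NAc set I or 3 of PFCx set I, and the latter also without replicate 4 of PFCx set II. Apart from Rnu1a1, none of these was called in either direction over both sets. With 75th percentile scaling the NAc-higher and PFCx-higher counts became 6 and 1 for dopamine genes and 3 and 4 for cortical layers 2 to 4. In that setting they were 1 and 3 for interneuron subtypes, 1 and 8 for neurons of any type and 1 and 0 for endothelial and mural genes. Without transcripts under 300 bases they became 3 and 9 for glutamate receptors, 5 and 4 for the adenosine, acetylcholine, opioid and cannabinoid list, 1 and 0 for oligodendrocyte precursors and 0 and 2 for endothelial and mural genes. Depth limits genes near 1 FPKM, which the tables give without counts.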
